A study of Mus musculus with 16 samples.

Results

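Cytotoxic lymphocytes, the CD8 T cells and natural killer (NK) cells that kill infected or altered cells, were followed in mouse lungs through 10 marker genes: Cd8a, Cd8b1, Ncr1, Klrb1c, Gzma, Gzmb, Gzmk, Prf1, Nkg7 and Eomes. The genes were taken by symbol from a list chosen with earlier results of these data known. They were matched to the Ensembl identifiers of the deposited table and make up 10 of its 53647 genes. Lungs fell into 4 groups: bleomycin plus a vector labelled Ad-ATP12A, bleomycin plus a vector labelled Ad-GFP, bleomycin without a vector, and control, where Ad stands for an adenovirus and GFP is a fluorescent protein used as a vector control. Bleomycin damages lung tissue and leaves a scar, which makes it a common mouse model of pulmonary fibrosis, and the series asks about ATP12A, a proton pump subunit, as a target in that disease. There were 16 RNA-seq libraries, 4 per group and 2 per group in each of 2 batches, named below as b1r1, b1r2, b2r1 and b2r2 for batch and replicate. Strain, sex, age, dose, day of collection, the vectors' promoter and the transgene's species are not in the labels. Nor do they say whether replicates came from separate mice, so the p-values speak of the spread between libraries. All 3 bleomycin groups share the injury, no lung received a vector without bleomycin, and a comparison of a vector group with control therefore holds the injury and the vector together.

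A cytotoxic lymphocyte kills by releasing granules onto its target. Perforin, the product of Prf1, opens the target's membrane, and granzymes, proteases such as those of Gzma, Gzmb and Gzmk, enter through it. Nkg7 encodes a membrane protein of these granules. CD8 T cells find their target through the T cell receptor and the CD8 co-receptor, whose chains are encoded by Cd8a and Cd8b1, while NK cells carry activating receptors such as NKp46 (Ncr1) and, in some mouse strains, NK1.1 (Klrb1c). Eomes encodes a T-box transcription factor of NK cells and effector and memory CD8 T cells. Cd8a without Cd8b1 is also carried by some dendritic cells, and Gzmb by plasmacytoid dendritic cells, mast cells and basophils.

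The genes lie on chromosomes 6 (Cd8a, Cd8b1, Klrb1c), 7 (Ncr1, Nkg7), 9 (Eomes), 10 (Prf1), 13 (Gzma, Gzmk) and 14 (Gzmb). Of the 10, 9 had an entry in the RefSeq promoter table (build GRCm38.p6), an earlier build than the one the expression files use. The stretches upstream of Ncr1, Gzma and Prf1, which fell against control in Ad-ATP12A lungs, and of Nkg7, a granule gene whose mean was highest in Ad-ATP12A lungs, are printed here 5′ to 3′ on the gene's strand. Capitals mark letters of a RUNX core (TGTGGT), a T-box core (GTGTGA) or an ETS core (AGGAAGT) on either strand, and no match overlapped another.
Ncr1, chr7:4337465-4337714, plus strand: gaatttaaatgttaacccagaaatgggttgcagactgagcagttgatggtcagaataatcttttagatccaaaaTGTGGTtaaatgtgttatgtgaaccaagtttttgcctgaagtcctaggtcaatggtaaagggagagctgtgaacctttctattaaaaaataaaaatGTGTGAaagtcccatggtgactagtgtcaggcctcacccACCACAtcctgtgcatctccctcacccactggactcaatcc
Gzma, chr13:113100982-113101231, minus strand: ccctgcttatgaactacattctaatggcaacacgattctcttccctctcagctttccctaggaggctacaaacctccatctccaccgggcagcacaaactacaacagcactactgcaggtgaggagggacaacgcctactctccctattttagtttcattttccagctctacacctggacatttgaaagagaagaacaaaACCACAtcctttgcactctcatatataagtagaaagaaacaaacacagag
Prf1, chr10:61297586-61297750, plus strand, ended before the gene's earliest annotated start: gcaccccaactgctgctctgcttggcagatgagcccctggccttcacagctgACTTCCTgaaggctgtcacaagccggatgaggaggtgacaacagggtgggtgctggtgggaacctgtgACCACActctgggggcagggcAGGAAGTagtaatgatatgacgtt
Nkg7, chr7:43436888-43437137, plus strand: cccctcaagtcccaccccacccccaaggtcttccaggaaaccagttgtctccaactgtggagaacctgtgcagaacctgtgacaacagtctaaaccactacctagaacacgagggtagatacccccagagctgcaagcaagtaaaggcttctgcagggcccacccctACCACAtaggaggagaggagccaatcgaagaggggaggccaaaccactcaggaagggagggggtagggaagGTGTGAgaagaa
Within 250 bases before the start, the RUNX letters stood in 6 of the 9 genes (Gzma, Gzmb, Klrb1c, Ncr1, Nkg7 and Prf1) and in 14% of the 32851 promoters of the table. The T-box letters stood in 4 of the 9 (Gzmb, Gzmk, Ncr1 and Nkg7) and in 12.3% of all promoters, and the ETS letters in 1 of the 9 (Prf1) and in 7.69% of all. For Gzmb, Gzmk and Prf1, no stretch just after the start was found in the gene's GENCODE M21 transcripts, so these starts are uncertain. Ncr1 held the RUNX letters at 176 and 41 bases before its start and the T-box letters at 80 bases. Nkg7 held them at 83 and 12 bases. Matches of this kind describe letters, not bound sites, and both the genes that were lower and the one that was not carried the RUNX letters.

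Levels are given in TPM, a relative abundance adjusted for transcript length and without read counts, so sequencing depth is unknown. Between 15537 and 16336 genes per library reached 1 TPM. Atp12a measured 2.96 to 29.02 TPM in the Ad-ATP12A libraries and 0 to 0.2 TPM in all others. Club cell Scgb1a1 was under 1000 TPM in 3 libraries, Ad-GFP b1r1, bleomycin b2r2 and control b2r1, and between 24870.14 and 122337.46 TPM in the other 13. Xist, the RNA of the inactive X chromosome, reached at least 10 TPM in 3 Ad-ATP12A libraries and in 1 library of each other group. Epithelial markers of the lung were abundant in every library. In whole lung RNA, fewer cells of a type and less RNA per cell cannot be told apart. Differences between groups are log2 fold changes of TPM + 1, a scale that understates the change of low genes, and come from limma fitted to all 16 libraries with batch as a term. P-values were adjusted by Benjamini-Hochberg over the 17003 genes tested, and a gene is called where the adjusted p is under 0.05. All 10 genes passed the filter on low values, at least 1 TPM in at least 4 libraries.

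Against control, the NK receptor and granule genes Ncr1, Gzma and Prf1 fell in Ad-ATP12A lungs and Cd8a rose. In Ad-GFP lungs Ncr1 and Prf1 fell, and in lungs with bleomycin alone no gene of the list passed the test. The 3 comparisons share the control lungs and are not independent. Of all genes tested, 13.3% were called higher and 9.49% lower in Ad-ATP12A against control, where 1 and 3 of the 10 were. In Ad-GFP against control 9.16% of all genes were called higher and 4.52% lower, and 0 and 2 of the 10 were. Bleomycin against control called 13.2% of all genes higher and 5.61% lower, and 0 of the 10 in either direction (limma). At an unadjusted p under 0.05 there were 3 of the 10 and 5702 of the 17003 genes tested. Across the 10 genes the median log2 fold change was 0 in Ad-ATP12A against control, where that of all genes was 0.005, −0.21 in Ad-GFP, where that of all genes was 0.027, and −0.24 in bleomycin, where that of all genes was 0.047. The Ad-ATP12A libraries lay entirely below control for 3 of the 10 (Ncr1, Klrb1c and Gzma) and 10.8% of all genes, and entirely above for 2 (Cd8a and Nkg7) and 14% of all genes.

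**Figure D1:**
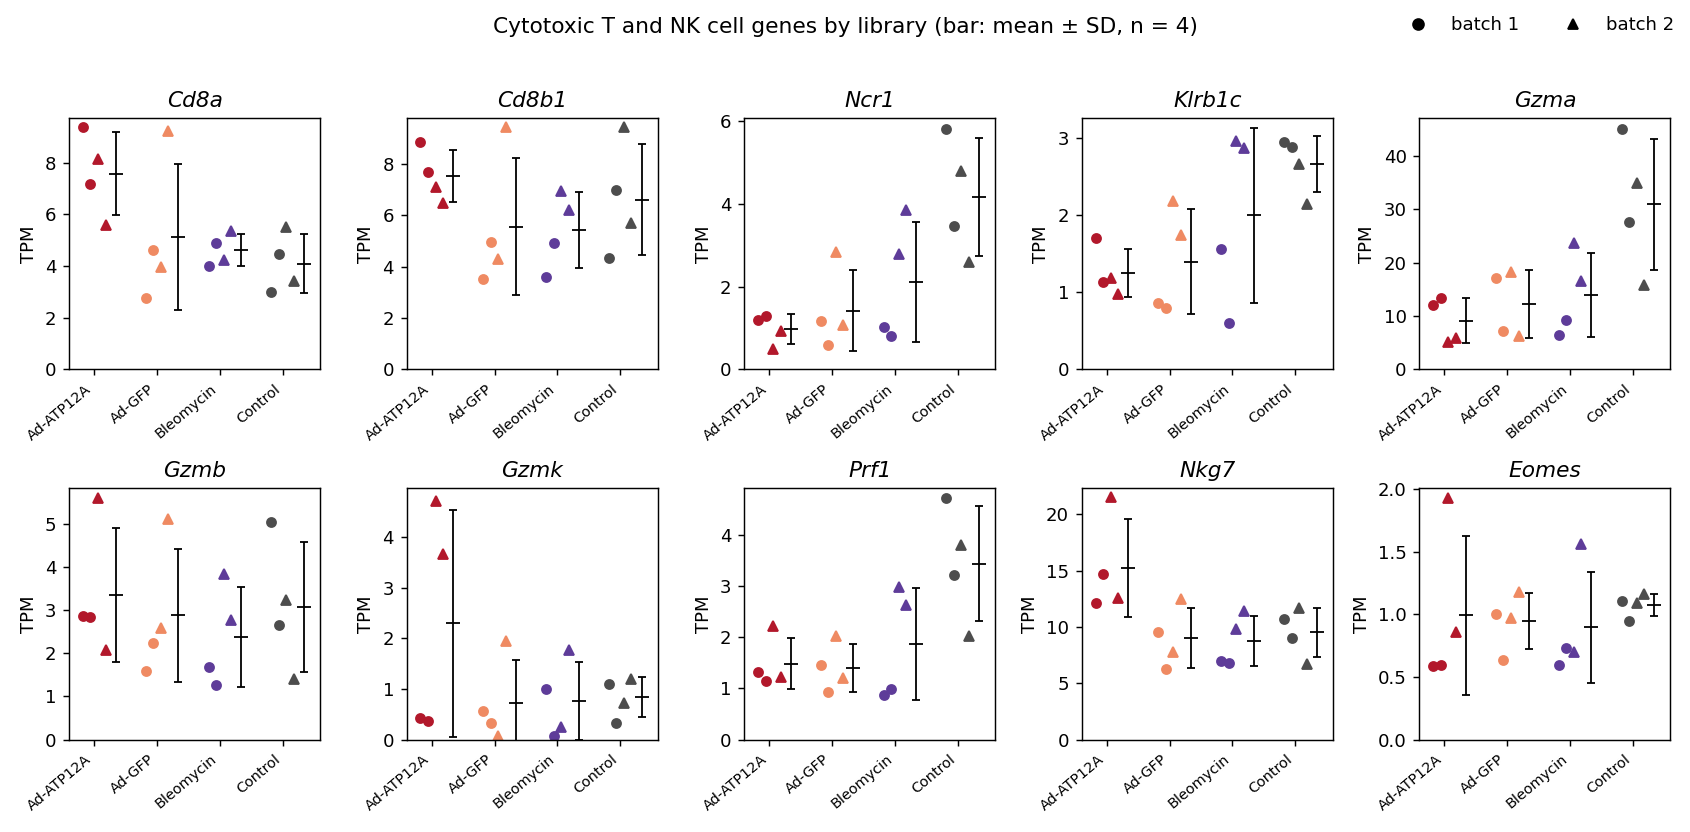
TPM of each of the 10 genes (vertical axes, linear) in the 16 libraries of the Ad-ATP12A, Ad-GFP, bleomycin and control groups, with circles for batch 1, triangles for batch 2 and bars for the mean ± SD of 4 libraries. The control libraries stand above all 4 Ad-ATP12A libraries for Ncr1, Klrb1c and Gzma, and below all 4 for Cd8a and Nkg7.

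The receptors of NK cells come first. Ncr1 measured 1.20, 1.30, 0.50 and 0.92 TPM in Ad-ATP12A lungs, 1.18, 0.60, 2.83 and 1.08 TPM in Ad-GFP lungs, 1.03, 0.80, 2.80 and 3.85 TPM in bleomycin lungs, and 5.81, 3.46, 4.81 and 2.59 TPM in control lungs, each in the order b1r1, b1r2, b2r1, b2r2, as in all lists of 4 values below. Every Ad-ATP12A library lay below every control library, while 1 Ad-GFP and 2 bleomycin libraries, all of batch 2, lay above the lowest control. The group means were 0.98 ± 0.358 TPM in Ad-ATP12A, 1.42 ± 0.972 TPM in Ad-GFP, 2.12 ± 1.46 TPM in bleomycin and 4.17 ± 1.43 TPM in control lungs (SD, n = 4 each). Neighbouring means in the order Ad-ATP12A, Ad-GFP and bleomycin differed by less than the SD of the higher one. Ncr1 fell in Ad-ATP12A against control (log2 fold change −1.36, SE 0.326, limma adjusted p = 0.0105), by −1.29 in batch 1 and −1.43 in batch 2. This call held under all 24 alternatives of processing, with adjusted p between 0.00321 and 0.0400. Against control it also fell in Ad-GFP lungs (−1.13, SE 0.326, adjusted p = 0.0360, with −1.56 and −0.69 by batch). The Ad-GFP call ended without Ad-GFP b1r1, b1r2 or b2r2 and without control b1r1, b1r2 or b2r1, at adjusted p of 0.0557, 0.123, 0.108, 0.109, 0.0790 and 0.0719. In bleomycin lungs the change was −0.81 (SE 0.326, adjusted p = 0.0980), with −1.53 in batch 1 and −0.089 in batch 2.

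Klrb1c showed the same order of means without a call. It measured 1.70, 1.13, 1.19 and 0.98 TPM in Ad-ATP12A lungs, 0.86, 0.80, 2.19 and 1.74 TPM in Ad-GFP lungs, 1.56, 0.60, 2.97 and 2.87 TPM in bleomycin lungs, and 2.95, 2.89, 2.67 and 2.15 TPM in control lungs. All 4 Ad-ATP12A libraries lay below all 4 controls, and the bleomycin libraries of batch 2 lay within or above the control range. Klrb1c changed by −0.71 in Ad-ATP12A against control (SE 0.247, adjusted p = 0.0526, with −0.71 in each batch), just outside the threshold. The differences were −0.65 in Ad-GFP (SE 0.247, adjusted p = 0.0942) and −0.37 in bleomycin lungs (SE 0.247, adjusted p = 0.307), the bleomycin value being −0.95 in batch 1 and 0.21 in batch 2. The Klrb1 genes are close copies of each other and Klrb1c overlaps a predicted gene on the same strand in the GENCODE M21 annotation, so part of its reads may have been assigned elsewhere.

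Summed over 6 NK markers (Ncr1, Klrb1c, Klre1, Klra8, Eomes and Gzma, of which 4 are in the list), the level was 9.1 to 18.12 TPM in Ad-ATP12A lungs, 10.41 to 27.26 TPM in Ad-GFP lungs, 10.69 to 32.95 TPM in bleomycin lungs and 26.59 to 58.91 TPM in control lungs. Gzma makes up much of this sum. The 6 basophil and mast cell markers summed to 22.44 to 43.86 TPM in Ad-ATP12A, 35.77 to 56.4 TPM in Ad-GFP, 30.38 to 57.63 TPM in bleomycin and 59.6 to 93.3 TPM in control lungs. Markers of B cells summed to 36.28 to 137 TPM, 32.28 to 65.63 TPM, 45.36 to 129.4 TPM and 116.4 to 177.8 TPM in the same order of groups. Only 2 of the 6 basophil and mast cell markers passed the filter, and 2, 1 and 2 of them were called lower in Ad-ATP12A, Ad-GFP and bleomycin against control. Of 5 B cell markers, all tested, 1, 4 and 0 were called lower in these comparisons. The shares of all genes called lower in them were 9.49%, 4.52% and 5.61%. The part of these cells in the results on Ncr1, Gzma and Prf1 was not tested.

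Among the granule proteases, Gzma, a tryptase that is abundant in resting NK cells, was the granzyme with the highest TPM in control lungs and the one that fell. Gzma measured 12.11, 13.33, 5.06 and 5.96 TPM in Ad-ATP12A lungs, 17.18, 7.25, 18.26 and 6.21 TPM in Ad-GFP lungs, 6.39, 9.18, 23.74 and 16.52 TPM in bleomycin lungs, and 45.10, 27.71, 35.01 and 15.91 TPM in control lungs. The Ad-ATP12A and control libraries did not overlap, and the Ad-GFP and bleomycin libraries overlapped control only above its lowest library, b2r2. The means were 9.12 ± 4.21 TPM in Ad-ATP12A, 12.2 ± 6.38 TPM in Ad-GFP, 14.0 ± 7.80 TPM in bleomycin and 30.9 ± 12.3 TPM in control lungs (SD, n = 4 each), and the first 3 did not differ beyond their SD. Gzma fell in Ad-ATP12A against control (log2 fold change −1.67, SE 0.459, adjusted p = 0.0203, with −1.41 and −1.93 by batch). Its call ended without Ad-ATP12A b2r1 or b2r2 and without control b1r1 or b2r1, at adjusted p of 0.0687, 0.0633, 0.0604 and 0.0520, and without the 3 libraries low in Scgb1a1, at 0.0679. It changed by −1.32 in Ad-GFP (SE 0.459, adjusted p = 0.0709) and by −1.16 in bleomycin lungs (SE 0.459, adjusted p = 0.0927), the bleomycin value being −2.07 in batch 1 and −0.25 in batch 2.

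Gzmb, which encodes a granzyme that cuts caspases in target cells, passed in no comparison. Its libraries read 2.85, 2.84, 5.60 and 2.08 TPM in Ad-ATP12A, 1.59, 2.23, 2.58 and 5.10 TPM in Ad-GFP, 1.67, 1.27, 3.84 and 2.76 TPM in bleomycin, and 5.03, 2.65, 3.23 and 1.41 TPM in control lungs. The 4 groups overlapped throughout. Gzmb changed by 0.11 in Ad-ATP12A (SE 0.327, adjusted p = 0.844), −0.074 in Ad-GFP (SE 0.327, adjusted p = 0.904) and −0.26 in bleomycin lungs (SE 0.327, adjusted p = 0.621) against control, and the sign of each changed when single libraries were left out. Markers of plasmacytoid dendritic cells, which can also hold Gzmb, summed to 220.2 to 383.2 TPM in Ad-ATP12A, 234.5 to 299.4 TPM in Ad-GFP, 253.1 to 273.4 TPM in bleomycin and 215.7 to 259.7 TPM in control lungs. The 5 markers did not move together. Their median log2 fold change against control was −0.27 in Ad-ATP12A, −0.185 in Ad-GFP and −0.043 in bleomycin lungs. In Ad-GFP lungs Bst2 was called higher (0.67) and Ly6d lower (−1.41). The part of these cells in the Gzmb values was not tested.

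Gzmk, a granzyme of memory-type CD8 T cells, was low in most libraries and higher in a pair of Ad-ATP12A libraries. It measured 0.42, 0.37, 4.72 and 3.67 TPM in Ad-ATP12A lungs, 0.57, 0.32, 0.08 and 1.95 TPM in Ad-GFP lungs, 0.99, 0.08, 0.25 and 1.76 TPM in bleomycin lungs, and 1.10, 0.33, 0.72 and 1.20 TPM in control lungs. Both high libraries were of batch 2, and the Ad-ATP12A libraries of batch 1 lay among those of the other groups. The log2 fold change in Ad-ATP12A against control was 0.57 (SE 0.409, adjusted p = 0.327), with −0.26 in batch 1 and 1.41 in batch 2, and the test of a difference between batches passed for none of the 10 genes in any comparison. In Ad-GFP and bleomycin lungs Gzmk changed by −0.17 (SE 0.409, adjusted p = 0.814) and −0.13 (SE 0.409, adjusted p = 0.858) against control. Gzmk overlaps Esm1 on the opposite strand in the annotation and the strand setting of the quantification is not given in the sources used here, so its reads are uncertain.

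Within a library, the balance of Gzma to Gzmb separated the control lungs from nearly all others. The ratio of Gzma to Gzmb TPM had a median of 3.56 (0.904 to 4.69) in Ad-ATP12A, 5.16 (1.22 to 10.8) in Ad-GFP, 6.08 (3.83 to 7.23) in bleomycin and 10.7 (8.97 to 11.3) in control lungs. Only Ad-GFP reached into the control range, in 1 library, b1r1. Of the summed TPM of the 3 granzymes, Gzma held 32.9% to 80.59% in Ad-ATP12A, 46.83% to 88.83% in Ad-GFP, 70.61% to 87.18% in bleomycin and 85.91% to 90.29% in control lungs. These ratios were chosen after values were seen and carry no test.

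**Figure D2:**
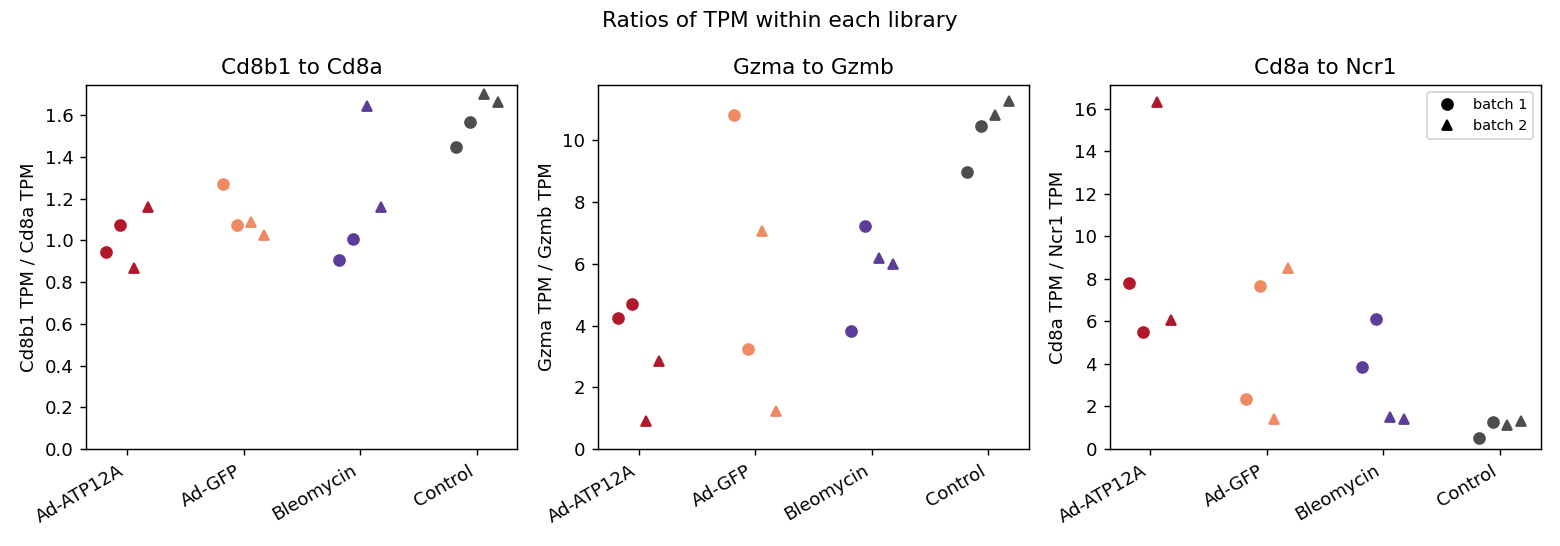
Ratios of TPM within each library (vertical axes, linear) for Cd8b1 to Cd8a, Gzma to Gzmb and Cd8a to Ncr1 in Ad-ATP12A, Ad-GFP, bleomycin and control lungs, with circles for batch 1 and triangles for batch 2. Control libraries lie between 8.97 and 11.3 for Gzma to Gzmb and between 0.516 and 1.32 for Cd8a to Ncr1, and all 4 Ad-ATP12A libraries lie at 5.51 or above for the last ratio.

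Prf1, which encodes the pore, fell against control in both vector groups. It measured 1.32, 1.15, 2.22 and 1.23 TPM in Ad-ATP12A lungs, 1.46, 0.92, 2.02 and 1.21 TPM in Ad-GFP lungs, 0.87, 0.99, 2.97 and 2.63 TPM in bleomycin lungs, and 4.71, 3.21, 3.80 and 2.03 TPM in control lungs. Every Ad-GFP library lay below every control library, by 0.01 TPM at the closest, and 1 Ad-ATP12A library lay above the lowest control. The means were 1.48 ± 0.498 TPM in Ad-ATP12A, 1.40 ± 0.467 TPM in Ad-GFP, 1.87 ± 1.09 TPM in bleomycin and 3.44 ± 1.12 TPM in control lungs (SD, n = 4 each), so the 3 injured groups did not differ beyond their SD. Prf1 fell against control in Ad-ATP12A lungs (log2 fold change −0.82, SE 0.253, adjusted p = 0.0327, with −1.13 and −0.51 by batch) and in Ad-GFP lungs (−0.87, SE 0.253, adjusted p = 0.0372, with −1.17 and −0.56 by batch). The Ad-ATP12A call ended without Ad-ATP12A b1r1, b1r2 or b2r2 or without control b1r1, b1r2 or b2r1, with adjusted p of 0.0577, 0.0554, 0.0973, 0.101, 0.0781 and 0.0631. The Ad-GFP call ended without Ad-GFP b1r2 or b2r2 or without the same control libraries, with adjusted p of 0.114, 0.115, 0.114, 0.0946 and 0.0697. In bleomycin lungs Prf1 changed by −0.68 (SE 0.253, adjusted p = 0.0772), with −1.35 in batch 1 and −0.0066 in batch 2. Within a library, Gzma held a median of 7.01 times the TPM of Prf1 in Ad-ATP12A, 8.46 in Ad-GFP, 7.67 in bleomycin and 8.92 in control lungs.

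Nkg7, the granule membrane gene, had its highest mean in Ad-ATP12A lungs. Its libraries read 12.15, 14.71, 21.55 and 12.59 TPM in Ad-ATP12A, 9.59, 6.30, 7.79 and 12.46 TPM in Ad-GFP, 6.97, 6.81, 9.78 and 11.46 TPM in bleomycin, and 10.74, 9.00, 11.64 and 6.70 TPM in control lungs. All 4 Ad-ATP12A libraries exceeded all bleomycin and control libraries, and 1 Ad-GFP library, b2r2, reached into their range. The means were 15.3 ± 4.35 TPM in Ad-ATP12A, 9.04 ± 2.65 TPM in Ad-GFP, 8.76 ± 2.26 TPM in bleomycin and 9.52 ± 2.18 TPM in control lungs (SD, n = 4 each), and the last 3 did not differ beyond their SD. Nkg7 changed by 0.62 in Ad-ATP12A against control (SE 0.218, adjusted p = 0.0549, with 0.41 and 0.83 by batch), just outside the threshold. It changed by −0.080 in Ad-GFP (SE 0.218, adjusted p = 0.837) and by −0.11 in bleomycin lungs (SE 0.218, adjusted p = 0.754) against control.

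Cd8a, the chain that all CD8 co-receptors share, rose in Ad-ATP12A lungs. It measured 9.37, 7.17, 8.16 and 5.58 TPM in Ad-ATP12A lungs, 2.78, 4.61, 3.95 and 9.21 TPM in Ad-GFP lungs, 3.99, 4.89, 4.22 and 5.35 TPM in bleomycin lungs, and 3, 4.45, 5.53 and 3.42 TPM in control lungs. The lowest Ad-ATP12A library exceeded the highest bleomycin and control libraries, and Ad-GFP b2r2 exceeded 3 of the 4 Ad-ATP12A libraries. The means were 7.57 ± 1.60 TPM in Ad-ATP12A, 5.14 ± 2.82 TPM in Ad-GFP, 4.61 ± 0.623 TPM in bleomycin and 4.10 ± 1.13 TPM in control lungs (SD, n = 4 each), and the last 3 did not differ beyond their SD. Against control Cd8a rose by 0.76 in Ad-ATP12A lungs (SE 0.253, adjusted p = 0.0451, with 0.98 and 0.53 by batch). This call held in 10 of 24 alternatives, with adjusted p between 0.0148 and 0.122. It ended without Ad-ATP12A b1r1, b1r2 or b2r1 (0.122, 0.0731 and 0.0975), without control b1r1, b1r2 or b2r2 (0.113, 0.0617 and 0.101), and without Ad-GFP b1r2 (0.0546) or bleomycin b1r1, b1r2, b2r1 or b2r2 (0.0564, 0.0553, 0.0503 and 0.0561). Cd8a changed by 0.19 in Ad-GFP (SE 0.253, adjusted p = 0.649) and 0.16 in bleomycin lungs (SE 0.253, adjusted p = 0.700).

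Cd8b1, whose product pairs with that of Cd8a on CD8 T cells, did not pass in any comparison. It measured 8.83, 7.69, 7.09 and 6.46 TPM in Ad-ATP12A lungs, 3.53, 4.94, 4.30 and 9.44 TPM in Ad-GFP lungs, 3.61, 4.92, 6.93 and 6.21 TPM in bleomycin lungs, and 4.34, 6.97, 9.42 and 5.69 TPM in control lungs. Ad-ATP12A and control libraries overlapped, and Ad-GFP b2r2 was again the highest of its group. Cd8b1 changed by 0.20 in Ad-ATP12A (SE 0.240, adjusted p = 0.577), −0.25 in Ad-GFP (SE 0.240, adjusted p = 0.516) and −0.23 in bleomycin lungs (SE 0.240, adjusted p = 0.531) against control. The ratio of Cd8b1 to Cd8a TPM was 0.869 to 1.16 in Ad-ATP12A, 1.02 to 1.27 in Ad-GFP, 0.905 to 1.64 in bleomycin and 1.45 to 1.70 in control lungs, and bleomycin b2r1 was the only library of the injured groups inside the control range. Markers of type 1 dendritic cells, which can hold Cd8a, summed to 70.37 to 77.54 TPM in Ad-ATP12A, 42.41 to 97.48 TPM in Ad-GFP, 47.05 to 100.3 TPM in bleomycin and 59.01 to 68.84 TPM in control lungs, with no marker at 0 in all libraries. The 5 markers were split. In Ad-ATP12A against control 1 was called higher and 1 lower, beside 13.3% and 9.49% of all genes. None was called in Ad-GFP or bleomycin against control. The part of these cells in the Cd8a result was not tested. Set against Ncr1, Cd8a stood at 5.51 to 16.3 times its TPM in Ad-ATP12A, 1.40 to 8.53 in Ad-GFP, 1.39 to 6.11 in bleomycin and 0.516 to 1.32 in control lungs.

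Eomes, the transcription factor, was low and passed in no comparison. It measured 0.59, 0.60, 1.93 and 0.86 TPM in Ad-ATP12A lungs, 1.00, 0.64, 0.97 and 1.18 TPM in Ad-GFP lungs, 0.60, 0.73, 0.70 and 1.56 TPM in bleomycin lungs, and 1.11, 0.95, 1.09 and 1.16 TPM in control lungs. The groups overlapped, with the narrowest spread in control lungs. Eomes changed by −0.11 in Ad-ATP12A (SE 0.177, adjusted p = 0.702), −0.10 in Ad-GFP (SE 0.177, adjusted p = 0.742) and −0.16 in bleomycin lungs (SE 0.177, adjusted p = 0.572) against control. An antisense gene overlaps Eomes, and without the strand setting its reads cannot be told apart from those of Eomes.

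**Figure D3:**
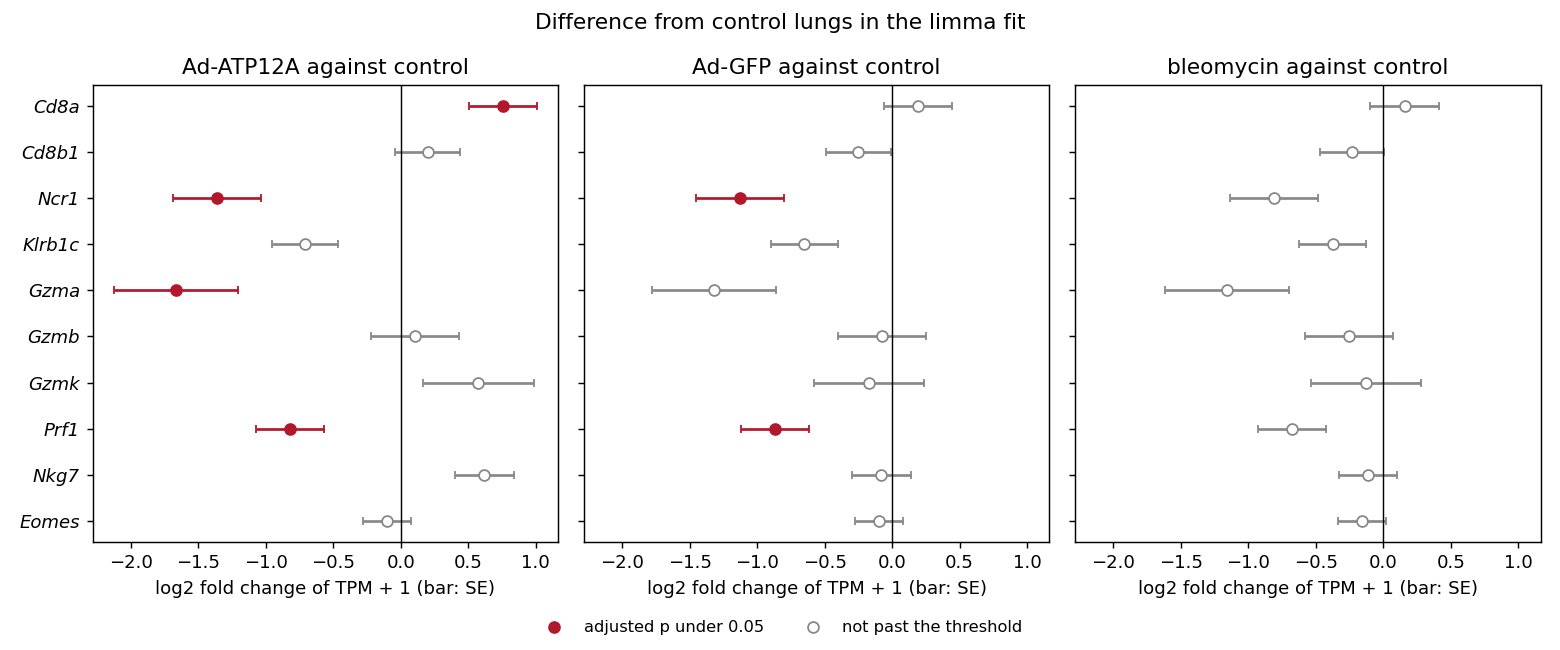
Log2 fold change of TPM + 1 against control (horizontal axes, bars ± SE of the limma fit) for the 10 genes in Ad-ATP12A, Ad-GFP and bleomycin lungs, filled where the adjusted p is under 0.05. Ncr1, Gzma and Prf1 are left of 0 in all 3 panels, and Cd8a is filled right of 0 in Ad-ATP12A lungs, at 0.76.

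In batch 1 Ncr1, Klrb1c, Gzma, Gzmb and Prf1 were lower in bleomycin than in control lungs, by −1.53, −0.95, −2.07, −0.93 and −1.35. These are differences of mean log2(TPM + 1) over 2 libraries per group. In batch 2 the same differences were −0.089, 0.21, −0.25, 0.42 and −0.0066. For Nkg7, Gzmk and Eomes they were −0.46, −0.19 and −0.29 in batch 1 and 0.23, −0.067 and −0.026 in batch 2. None of the 10 passed the test of a difference between batches in any comparison, and the lowest adjusted p was 0.0985, for Klrb1c in bleomycin against control. Of all genes tested, 476 passed it in Ad-ATP12A, 401 in Ad-GFP and 11 in bleomycin against control. In Ad-ATP12A against bleomycin the difference for Gzma was 0.66 in batch 1 and −1.68 in batch 2, and that for Ncr1 was 0.23 and −1.34. In Ad-ATP12A against control the differences for Ncr1, Klrb1c, Gzma and Prf1 were negative in both batches, and those for Cd8a and Nkg7 positive in both.

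**Figure D4:**
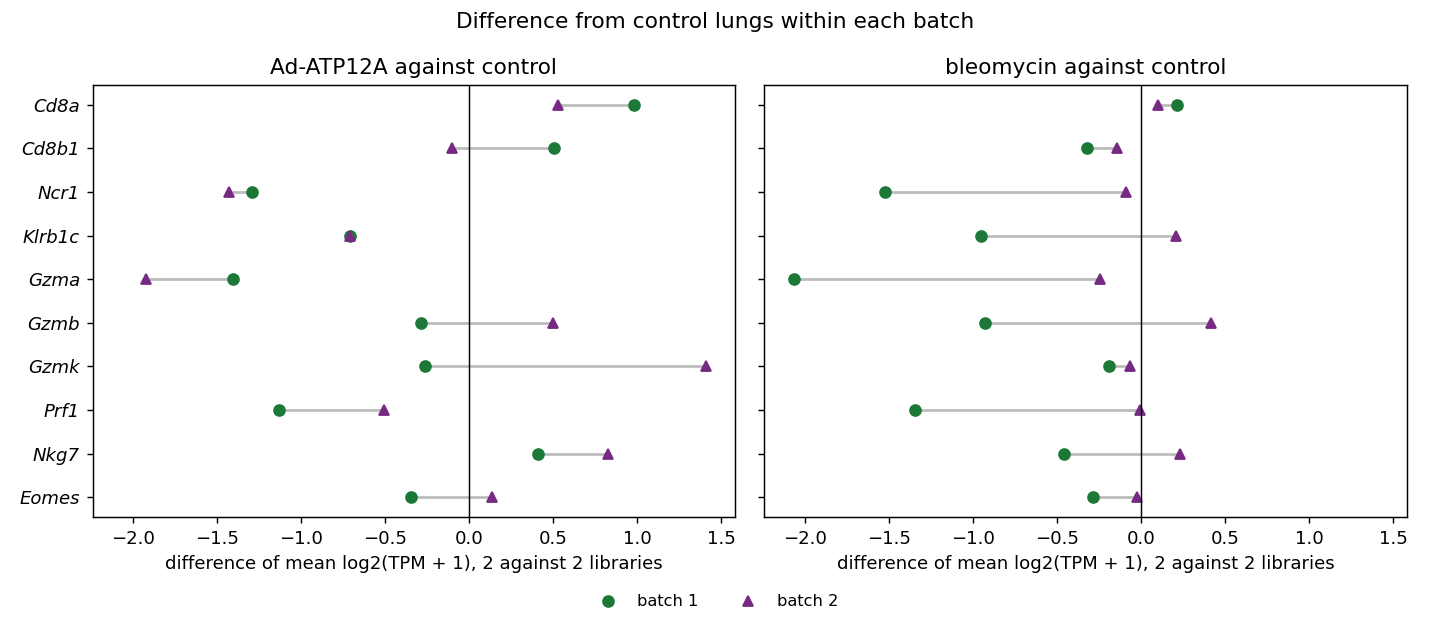
Difference of mean log2(TPM + 1) from control within batch 1 (circles) and batch 2 (triangles), over 2 libraries per group, for the 10 genes in Ad-ATP12A lungs and in bleomycin lungs. In bleomycin lungs Ncr1, Gzma and Prf1 stand at −1.53, −2.07 and −1.35 in batch 1 and at −0.089, −0.25 and −0.0066 in batch 2.

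Among the injured lungs, the question was whether the vectors changed these genes. No gene of the list was called in Ad-ATP12A against Ad-GFP, in Ad-ATP12A against bleomycin or in Ad-GFP against bleomycin, and almost no gene was called anywhere. In Ad-ATP12A against Ad-GFP 0.00588% of all genes were called higher and 0% lower. In Ad-ATP12A against bleomycin the shares were 0.0176% and 0.00588%, and in Ad-GFP against bleomycin 0.00588% and 0.00588%. At an unadjusted p under 0.05 there were 2, 2 and 0 of the 10 genes, and 413, 509 and 287 of all genes. Nkg7 was higher in all 4 Ad-ATP12A libraries than in all 4 bleomycin libraries, with a log2 difference of 0.73 (SE 0.218, unadjusted p = 0.00474, limma adjusted p = 1.00), and Cd8a likewise, with 0.60 (SE 0.253, unadjusted p = 0.0329, limma adjusted p = 1.00). Groups stood apart upwards in this way for 0.506% of all genes. Against Ad-GFP, the Ad-ATP12A differences were 0.70 for Nkg7 (SE 0.218, unadjusted p = 0.00637, limma adjusted p = 0.999) and 0.56 for Cd8a (SE 0.253, unadjusted p = 0.0426, limma adjusted p = 0.999), with overlapping libraries. Gzmk differed by 0.74 (SE 0.409), Cd8b1 by 0.45 (SE 0.240), Ncr1 by −0.23 (SE 0.326) and Gzma by −0.35 (SE 0.459) in that comparison. Ncr1 and Klrb1c differed by −0.32 (SE 0.326) and −0.28 (SE 0.247) in Ad-GFP against bleomycin. These comparisons share groups with each other and are not independent.

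The genes around the killing machinery were read from 9 lists with 137 genes, of which 122 passed the filter. Among 15 further genes of granules and killing, 4 were called higher and 1 lower in Ad-ATP12A against control, 1 and 1 in Ad-GFP, and 3 and 1 in bleomycin. Of all genes tested, 13.3% were called higher and 9.49% lower in Ad-ATP12A, 9.16% and 4.52% in Ad-GFP, and 13.2% and 5.61% in bleomycin, so the counts on 15 genes are given as a description. Ctsw, a cathepsin of cytotoxic lymphocytes, rose in Ad-ATP12A lungs to 13.1 ± 1.86 TPM, against 6.34 ± 1.34 TPM in control lungs (log2 fold change 0.95, SE 0.204, adjusted p = 0.00587, with 0.99 and 0.92 by batch). Tnfsf10, the death ligand TRAIL, fell to 31.0 ± 7.93 TPM in Ad-ATP12A, against 76.6 ± 11.0 TPM in control lungs (−1.30, SE 0.335, adjusted p = 0.0151), and its adjusted p was 0.0552 without Ad-ATP12A b2r1. Serpinb9, an inhibitor of granzyme B, rose in bleomycin lungs by 0.65 (SE 0.158, adjusted p = 0.0136), and its adjusted p was 0.0604 without the 3 libraries low in Scgb1a1. As a list they had a median change of 0.11, 0.16 and 0.010 in these comparisons, beside 0.005, 0.027 and 0.047 over all genes.

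Of 22 NK receptors and adaptors, 3 were called higher and 2 lower in Ad-ATP12A against control, 1 and 0 in Ad-GFP, and 2 and 1 in bleomycin, with medians of −0.32, −0.22 and −0.12. These counts were near the shares of all genes called. Those shares were 13.3% higher and 9.49% lower in Ad-ATP12A, 9.16% and 4.52% in Ad-GFP, and 13.2% and 5.61% in bleomycin against control. Klra8, the activating receptor Ly49H, fell to 0.443 ± 0.247 TPM in Ad-ATP12A, against 2.14 ± 0.917 TPM in control lungs (−1.09, SE 0.274, adjusted p = 0.0135, with −0.66 and −1.51 by batch). Klra genes are close copies of each other, and reads may be split among them. Tyrobp, the adaptor DAP12, rose by 1.18 in Ad-ATP12A (SE 0.285, adjusted p = 0.0108, with 0.51 and 1.85 by batch) and by 1.21 in bleomycin lungs (SE 0.285, adjusted p = 0.0111). Tyrobp is also made by macrophages, and at 424 ± 158 TPM in Ad-ATP12A, 417 ± 78.7 TPM in bleomycin and 179 ± 35.2 TPM in control lungs it was far more abundant than any NK receptor of the list of 10.

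The 12 genes of the T cell receptor complex and its co-receptor CD4 had 8 called higher in Ad-ATP12A against control, 0 in Ad-GFP and 1 in bleomycin, none lower, with medians of 0.69, 0.13 and 0.36. Of all genes tested, 13.3%, 9.16% and 13.2% were called higher in these comparisons. None of the 12 was called in Ad-ATP12A against Ad-GFP or in Ad-ATP12A against bleomycin. Lck, the kinase bound to CD4 and CD8, rose in Ad-ATP12A lungs to 21.1 ± 2.35 TPM, against 10.1 ± 1.43 TPM in control lungs (1.00, SE 0.152, adjusted p = 8.9e-04, with 1.07 and 0.94 by batch). Lat, a scaffold downstream of the receptor, rose to 18.3 ± 2.21 TPM in Ad-ATP12A, against 11.3 ± 1.05 TPM in control lungs (0.65, SE 0.139, adjusted p = 0.00602). Cd4 and Cd3d differed by 0.68 (SE 0.311, adjusted p = 0.140) and 0.46 (SE 0.214, adjusted p = 0.151) in bleomycin against control, without a call, and the Cd4 value was −0.25 in batch 1 and 1.62 in batch 2. Summed over 6 T cell markers, the level was 93.33 to 106.7 TPM in Ad-ATP12A, 36.56 to 107.1 TPM in Ad-GFP, 47.31 to 111.3 TPM in bleomycin and 45.86 to 59.78 TPM in control lungs. The ratio of Cd8a to Cd4 TPM had medians of 0.938, 0.962, 0.927 and 1.26 in that order of groups, with ranges that overlapped. Of 6 genes listed for lymph node and thymus tissue (Ccl21a, Ccl19, Cr2, Foxn1, Rag1 and Dntt), 3 passed the filter. The 6 summed to 237.8 to 495.6 TPM in Ad-ATP12A, 260.4 to 439.6 TPM in Ad-GFP, 273.9 to 344.8 TPM in bleomycin and 155.6 to 171.3 TPM in control lungs. This sum lay above that of control lungs in all 3 groups. Its tested genes did not move together: in Ad-GFP against control Ccl21a changed by 1.00, Ccl19 by 0.22 and Cr2 by −1.08. Rag1 was under 0.1 TPM in all libraries. The part of such tissue in the T cell results was not tested.

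**Figure D5:**
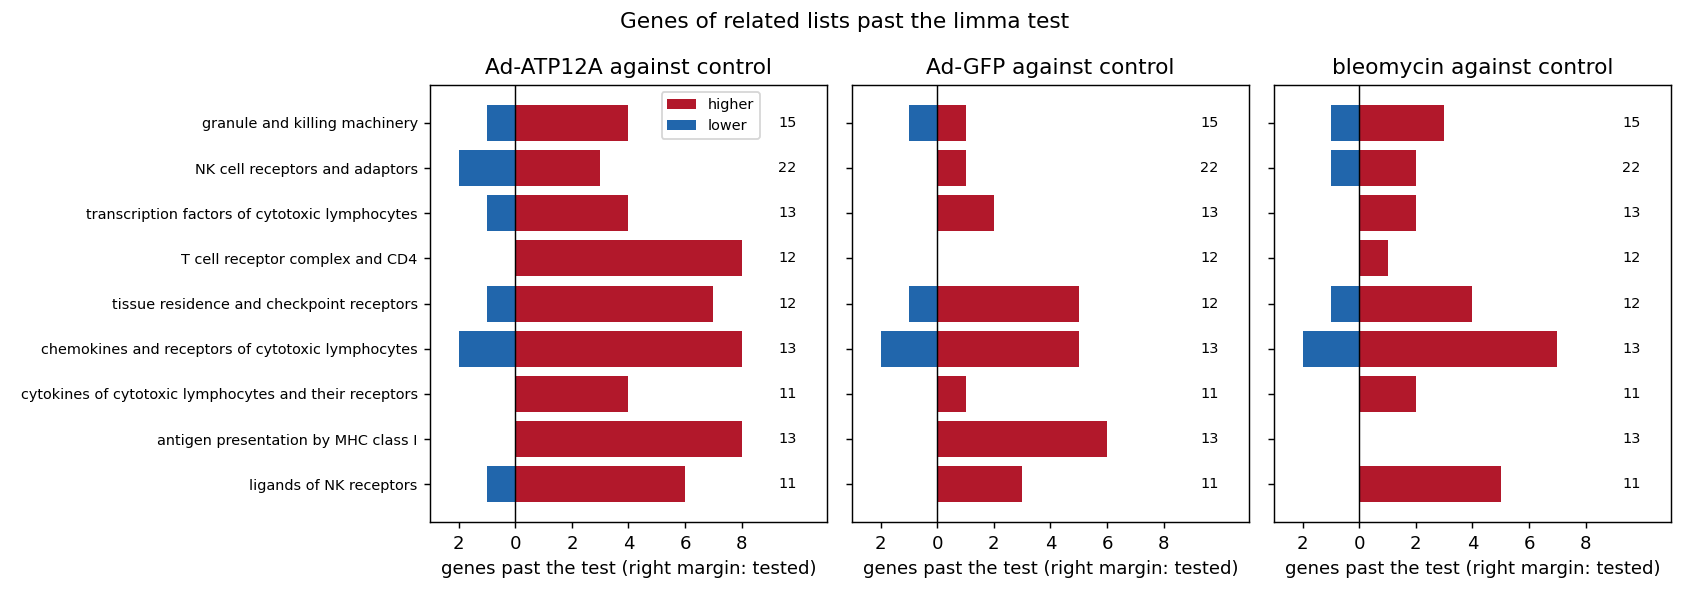
Number of genes called higher (right of 0) and lower (left of 0) in each of 9 related lists, for Ad-ATP12A, Ad-GFP and bleomycin lungs against control, with the number tested at the right margin. The T cell receptor list has 8 of 12 genes higher in Ad-ATP12A lungs, 0 in Ad-GFP lungs and 1 in bleomycin lungs. Of all genes tested, 13.3%, 9.16% and 13.2% were called higher in these groups against control.

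Genes of tissue residence and checkpoint receptors had 7 of 12 called higher and 1 lower in Ad-ATP12A against control, 5 and 1 in Ad-GFP, and 4 and 1 in bleomycin, with medians of 0.92, 0.61 and 0.61. Of all genes, 13.3% were called higher and 9.49% lower in Ad-ATP12A, 9.16% and 4.52% in Ad-GFP, and 13.2% and 5.61% in bleomycin. Pdcd1, the checkpoint receptor PD-1, rose to 5.44 ± 0.708 TPM in Ad-ATP12A, against 0.460 ± 0.119 TPM in control lungs (2.14, SE 0.262, adjusted p = 2.2e-04, with 2.10 and 2.18 by batch). In bleomycin lungs Pdcd1 rose to 2.65 ± 1.38 TPM (1.25, SE 0.262, adjusted p = 0.00616), and that adjusted p was 0.0615 without the 3 libraries low in Scgb1a1. Rgs1, a regulator of chemokine signalling found in tissue-resident lymphocytes and other leukocytes, rose by 2.45 in Ad-ATP12A (SE 0.312, adjusted p = 2.7e-04) and by 2.52 in bleomycin lungs (SE 0.312, adjusted p = 2.6e-04). Itga1 went the other way, by −0.79 in Ad-GFP (SE 0.249, limma adjusted p = 0.0491) and −0.81 in bleomycin lungs (SE 0.249, limma adjusted p = 0.0365). The bleomycin call on Itga1 ended under 10 of the 24 alternatives.

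Of 13 chemokines and receptors of cytotoxic lymphocytes, 8 were called higher and 2 lower in Ad-ATP12A against control, 5 and 2 in Ad-GFP, and 7 and 2 in bleomycin, with medians of 1.27, 0.58 and 0.95. The shares of all genes were 13.3% higher and 9.49% lower in Ad-ATP12A, 9.16% and 4.52% in Ad-GFP, and 13.2% and 5.61% in bleomycin. Cxcl9, a ligand of the receptor CXCR3 that attracts activated T and NK cells, rose to 30.3 ± 18.4 TPM in Ad-ATP12A, against 0.943 ± 0.504 TPM in control lungs (3.90, SE 0.533, adjusted p = 4.1e-04). Cxcl10, a ligand of the same receptor, rose by 3.68 in Ad-ATP12A (SE 0.439, adjusted p = 1.7e-04) and by 3.01 in bleomycin lungs (SE 0.439, adjusted p = 7.7e-04). Cxcl16, which attracts CXCR6-bearing T cells, rose by 1.23 in bleomycin lungs (SE 0.219, adjusted p = 0.00275).

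The remaining lists concern regulation, growth and recognition. Of 13 transcription factors of cytotoxic lymphocytes, 4 were called higher and 1 lower in Ad-ATP12A against control, 2 and 0 in Ad-GFP, and 2 and 0 in bleomycin, with medians of 0.037, −0.15 and 0.006. Batf rose by 0.84 in Ad-ATP12A (SE 0.138, adjusted p = 0.00140) and 0.72 in bleomycin lungs (SE 0.138, adjusted p = 0.00378), and Bhlhe40 by 0.98 (SE 0.202, adjusted p = 0.00487) and 1.00 (SE 0.202, adjusted p = 0.00507). Both are induced in activated lymphocytes and in other cells. Of 11 cytokines and receptors, 4 were called higher in Ad-ATP12A, 1 in Ad-GFP and 2 in bleomycin lungs, none lower, with medians of 0.14, 0.11 and 0.14. The shares of all genes were 13.3% higher and 9.49% lower in Ad-ATP12A, 9.16% and 4.52% in Ad-GFP, and 13.2% and 5.61% in bleomycin. The small counts of both lists are given as a description. Il2ra, the alpha chain of the interleukin 2 receptor, rose by 0.92 in Ad-ATP12A against control (SE 0.203, adjusted p = 0.00702).

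Antigen presentation by MHC class I, which CD8 T cells read, had 8 of 13 genes called higher in Ad-ATP12A against control, 6 in Ad-GFP and 0 in bleomycin, none lower, with medians of 0.55, 0.38 and 0.30. Tap1, which carries peptides to MHC class I, rose to 66.8 ± 10.5 TPM in Ad-ATP12A, against 32.2 ± 5.54 TPM in control lungs (1.03, SE 0.194, adjusted p = 0.00306). Psmb8, a subunit of the immunoproteasome, rose to 181.6 ± 4.47 TPM, against 111.3 ± 7.18 TPM in control lungs (0.70, SE 0.131, adjusted p = 0.00299). No gene of this list was called in Ad-ATP12A or Ad-GFP against bleomycin. Of 11 ligands of NK receptors, 6 were called higher and 1 lower in Ad-ATP12A, 3 and 0 in Ad-GFP, and 5 and 0 in bleomycin against control, with medians of 0.36, 0.31 and 0.38. Beside both lists, the shares of all genes were 13.3% higher and 9.49% lower in Ad-ATP12A, 9.16% and 4.52% in Ad-GFP, and 13.2% and 5.61% in bleomycin. Cd48, a ligand of the receptor CD244, rose by 0.74 in Ad-ATP12A (SE 0.141, adjusted p = 0.00331) and 0.85 in bleomycin lungs (SE 0.141, adjusted p = 0.00176). Raet1e, a ligand of the activating receptor NKG2D, rose by 1.48 in Ad-GFP (SE 0.298, adjusted p = 0.00731) and 1.35 in bleomycin lungs (SE 0.298, adjusted p = 0.00795), with 2.14 in batch 1 and 0.57 in batch 2 for bleomycin.

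Genes whose profile over the 16 libraries was most like that of the mean of Cd8a and Cd8b1 were Apol7e, Runx3, Pglyrp2, Agap2 and H2-M3, with a root mean square difference of 0.24, 0.25, 0.25, 0.26 and 0.26 on the log2(TPM + 1) scale, where the profile itself had an SD of 0.39. For the mean of Ncr1 and Klrb1c they were Tceal1, Tnfrsf19, Prps2, Abcg3 and S1pr4, with 0.20, 0.21, 0.22, 0.22 and 0.23, where the profile had an SD of 0.54. The likeness describes these libraries, which share groups and batches.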

How the data were processed

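Per the labels, lung RNA was prepared with a Qiagen RNeasy kit, and 0.6 ug of total RNA entered each library. The submitters' processing notes name STAR, RSEM and the build GRCm39 (mm39); versions, annotation and strand setting are not given in the sources used here. The deposited table holds log2 values, TPM to which the authors added 1 before taking the logarithm, and turning them back gave columns summing to 999999.12 to 1000000.82 TPM. TPM keeps no depth, so no count model was fitted. Groups, batches and replicate numbers came from the sample titles. Symbols came from GENCODE M21 (GRCm38), which matched 52093 of 53647 identifiers, so no coordinates of the files' build are given.

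The test was limma 3.58.1 in R 4.3.3 (two-sided, trended prior variance) on log2(TPM + 1), with 4 group means plus batch, over the 17003 genes that reached 1 TPM in 4 or more libraries. The script was tested on simulated data. Batch differences were tested as an interaction.

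The 10 genes, the lists and the markers were chosen with earlier results of these data known. Of the alternatives, 2 were added after seeing the data (leaving out 3 libraries low in Scgb1a1, and a term for Xist libraries). The rule for named genes took, from each list, up to 4 genes with the smallest p in bleomycin against control and up to 2 with the smallest p in any comparison with a vector group, and for likeness the 5 nearest genes per profile, passing over predicted models, pseudogenes and receptor segments. It gave 54 entries. Of these, 29 stayed on one side of the threshold under all 24 alternatives, 10 changed side under 1 and 15 under more. Apart from Itga1, the last 15 are in the lists' counts without being named, as are some of the others. Alternatives were a pseudocount of 0.1, no filter, quantile normalization, only the 8 libraries compared, no batch term, a replicate block and each library left out. Sequences are from the RefSeq promoter table. Figures used matplotlib 3.10.9.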

Additional observations from a re-analysis of the deposited data

Results flagged for a closer look

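Over 40 checks, 1 for each of the 10 genes in each of the 4 groups, 1 library stood apart from the rest of its group by Dixon's criterion: Eomes in bleomycin b2r2, at 1.56 TPM, against 0.60, 0.73 and 0.70 TPM in the other bleomycin libraries. Chance flags about 1 in 20 groups. The same library held 1.76 TPM of Gzmk and 3.85 TPM of Ncr1, the highest values of the bleomycin group, and is among the 3 libraries low in Scgb1a1; the part of that difference was not tested.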

How the results depend on the processing

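The fall of Ncr1 in Ad-ATP12A against control was called under all 24 alternatives, and every other call on the 10 genes ended under some: Gzma was kept in 18, Prf1 in 16 and Cd8a in 10, and in Ad-GFP against control Prf1 in 15 and Ncr1 in 14. No filter gave adjusted p of 0.0506 for Gzma, 0.0778 for Prf1 and 0.0990 for Cd8a in Ad-ATP12A against control, and of 0.0839 for Ncr1 and 0.0865 for Prf1 in Ad-GFP against control. Without the 3 libraries low in Scgb1a1 they were 0.0679 for Gzma and 0.0839 for Prf1, and 0.111 for Ncr1 and 0.101 for Prf1. With no batch term they were 0.0542 for Cd8a in Ad-ATP12A and 0.0550 for Prf1 in Ad-GFP against control, and with only the 8 libraries compared 0.0721 for Ncr1 and 0.0749 for Prf1 in Ad-GFP. Leaving out 1 library at a time gave 2 to 4 called genes of the 10 in Ad-ATP12A against control, 0 to 3 in Ad-GFP against control, 0 to 2 in bleomycin against control and 0 to 0 in the other 3 comparisons. Over all genes it gave 2225 to 4193, 870 to 2982 and 1484 to 3701 against control, and 0 to 2 in Ad-ATP12A against Ad-GFP, 2 to 6 in Ad-ATP12A against bleomycin and 0 to 3 in Ad-GFP against bleomycin. Of the 10, the number called in Ad-GFP against control was 0 with no filter, with only the 8 libraries compared and without the 3 libraries low in Scgb1a1, and 1 with no batch term and with the replicate block. In Ad-ATP12A against control it was 1 with no filter and 2 without the 3 libraries. In bleomycin against control it was 1 with quantile normalization and 1 with the Xist term. Over all genes, the count in Ad-GFP against control was 963 with only the 8 libraries and 1375 without the 3 libraries, and in bleomycin against control 1468 without the 3 libraries. Where few genes were called, Ad-GFP against bleomycin gave 1 with a pseudocount of 0.1, quantile normalization, 8 libraries or no batch term, and 0 with no filter or without the 3 libraries. Ad-ATP12A against bleomycin gave 2 with a pseudocount of 0.1, no batch term or the Xist term, and 0 with 8 libraries or without the 3 libraries. Ad-ATP12A against Ad-GFP gave 0 with no filter, 8 libraries, the replicate block, the Xist term or without the 3 libraries. No filter tests more genes, and some settings use fewer libraries; the cause of the other moves was not tested. Some changes near 0, none called, turned their sign. In Ad-GFP against control, Cd8b1 was 0.026 and Gzmb 0.071 without the 3 libraries. Leaving out 1 library at a time gave, in that comparison, −0.38 to 0.21 for Gzmb, −0.28 to 0.032 for Nkg7, −0.36 to 0.16 for Gzmk and −0.081 to 0.38 for Cd8a. It gave −0.20 to 0.39 for Gzmb in Ad-ATP12A against control, and −0.56 to 0.029 for Gzmb and −0.35 to 0.14 for Gzmk in bleomycin against control. A further 18 fold changes, not given above and not called, had 43 of 468 values of the other sign, counting each batch alone, without a test, as well as the 24 alternatives. The replicate block ended the calls on Cd8a in Ad-ATP12A against control (adjusted p = 0.0644) and on Ncr1 in Ad-GFP against control (0.0517). Same-numbered libraries of different groups showed little common deviation (r over 0.1 in 1 of 12 pairs, −0.158 to 0.212). With 2 libraries per group and batch, these values cannot decide whether same-numbered libraries were paired. Depth is unknown, so the precision of genes near 1 TPM, such as Eomes, Ncr1, Klrb1c and Gzmk, rests on the spread between 4 libraries alone.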
